A study of Homo sapiens with 18 samples.

Results

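Expression of 9 enzymes of serine synthesis and one-carbon metabolism was followed in VCaP, an established line of human prostate cancer cells with the TMPRSS2:ERG fusion. The genes PHGDH, PSAT1, PSPH, SHMT1, SHMT2, MTHFD1, MTHFD2, MTHFD1L, and ALDH1L2 were taken by name and make up 9 of the 22034 genes in the count table. They were listed as targets of both ATF4 and MYC, which was not tested here for any of them. The question asked of them was whether they moved with the targets of ATF4 or with those of MYC. RNA-seq of ribosomal RNA-depleted total RNA was available for 18 samples in 6 groups of 3. VCaP-shERG cells stably carry a doxycycline-inducible hairpin against ERG and were either left uninduced in DMSO (shERG-DMSO) or treated with doxycycline at 1 µg/mL (shERG-Dox), for a time that the labels do not give. Parental VCaP cells received DMSO, also for a time not given, or 50 µM PBITE-1, a small molecule that the study describes as binding the pointed domain of ERG, for 4, 8, or 12 h. All cells were grown in DMEM with serum, and all 3 PBITE-1 times were compared with the same DMSO samples. Time in culture therefore cannot be told apart from time of PBITE-1. A non-targeting hairpin with doxycycline was not analysed here, so an effect of doxycycline itself cannot be told apart from that of the hairpin, and the sources used here do not say whether the VCaP-shERG line is a single clone.

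Cells make serine from a glycolytic intermediate through PHGDH, PSAT1, and PSPH. Serine hydroxymethyltransferases then split serine into glycine and a one-carbon unit carried on tetrahydrofolate, in the cytosol by SHMT1 and in mitochondria by SHMT2. The unit is oxidised and released as formate in mitochondria (MTHFD2, MTHFD1L) and taken up into cytosolic folate by MTHFD1, where it serves the synthesis of purines and thymidylate, while ALDH1L2 oxidises the mitochondrial formyl-folate to carbon dioxide. ATF4 is the transcription factor translated in the integrated stress response and switches on amino acid synthesis and transport. MYC, which acts as a dimer with MAX, drives ribosome production and nucleotide synthesis.

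Total counts were between 11308600 and 17483423 per sample, and no pair of replicates in a group was alike enough to be a copy. The study describes the PBITE-1 samples as biological replicates, and for the VCaP-shERG samples, which are labelled only by number, p-values measure the spread between these samples, which may be technical. The 5 prostate epithelial markers reported, KRT8, KRT18, EPCAM, HOXB13, and KLK3, were present in every sample, while PTPRC reached at most 4 counts and COL1A2 and CD3E at most 1 count in any sample. COL1A1 was at 13 to 110 counts, CD68 at 7 to 20, and PECAM1 at 0 to 26. The summed level of the epithelial markers, in CPM (counts scaled to library size) set within each experiment, was 1026 to 1042 in shERG-DMSO against 1139.6 to 1197 in shERG-Dox, and 887 to 943 in DMSO against 678 to 704 at 12 h of PBITE-1. The summed level of 6 markers of other cell types was 1.83 to 3.30 CPM against 6.20 to 6.90 CPM, and 1.77 to 2.51 CPM against 6.52 to 9.60 CPM, in the same groups. That sum rests mostly on COL1A1, whose median over all samples was 3.73 CPM, beside 0.81 CPM for CD68 and 0.086 CPM for PECAM1. The epithelial markers did not all move together, with log2 fold changes of -0.37 to 0.75 in shERG-Dox and -3.42 to 0.95 at 12 h. The part of these shifts in the results that follow was not tested. In bulk RNA, fewer cells expressing a gene and less of its RNA per cell cannot be told apart.

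The 9 genes lie on separate stretches of the GRCh38 genome (GENCODE release 29), PHGDH at chr1:119648411-119744226, PSAT1 at chr9:78297143-78330093, PSPH at chr7:56011051-56051604, SHMT1 at chr17:18327860-18363563, and SHMT2 at chr12:57229327-57234935. MTHFD1 lies at chr14:64388031-64463457, MTHFD2 at chr2:74198562-74217565, MTHFD1L at chr6:150865549-151101887, and ALDH1L2 at chr12:105019784-105084577. RefSeq promoter windows on GRCh38.p14, from 250 bases before to 50 bases after a transcript start, were matched for 6 of the 9 genes (9 windows). PSPH, SHMT2, and ALDH1L2 had none. The windows were searched on both strands for the E-box CACGTG, to which MYC and MAX can bind, and for the C/EBP-ATF element TGATGNAA, to which ATF4 can bind. Among all 34796 windows, 7.20% held the E-box and 3.63% the C/EBP-ATF element. Counted by gene, 8.72% of 27058 genes had a window with the E-box and 4.48% one with the C/EBP-ATF element. The windows of 2 enzymes are shown because they held such a match and because both genes fell with PBITE-1. Those of PSAT1 and MTHFD2, which rose, are shown beside them. The window of SHMT1, which also fell, held neither motif and is not shown. Whether a motif goes with a direction was not tested. Capitals mark the E-box and, in MTHFD1L, also the C/EBP-ATF element after it.

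MTHFD1, chr14:64388103-64388402, + strand: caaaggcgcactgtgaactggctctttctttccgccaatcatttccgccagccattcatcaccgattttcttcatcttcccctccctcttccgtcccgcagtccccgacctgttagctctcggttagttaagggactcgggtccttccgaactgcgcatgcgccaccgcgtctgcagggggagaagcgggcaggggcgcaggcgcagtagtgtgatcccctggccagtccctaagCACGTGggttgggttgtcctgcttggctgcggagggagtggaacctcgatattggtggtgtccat
MTHFD1L, chr6:150866083-150866382, + strand: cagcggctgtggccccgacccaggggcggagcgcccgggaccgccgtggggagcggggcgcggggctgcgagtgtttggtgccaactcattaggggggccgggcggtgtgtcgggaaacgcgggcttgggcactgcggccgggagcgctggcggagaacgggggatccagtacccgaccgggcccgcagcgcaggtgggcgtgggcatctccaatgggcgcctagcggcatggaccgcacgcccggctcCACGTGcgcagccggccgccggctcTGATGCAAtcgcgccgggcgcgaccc
PSAT1, chr9:78296875-78297174, + strand: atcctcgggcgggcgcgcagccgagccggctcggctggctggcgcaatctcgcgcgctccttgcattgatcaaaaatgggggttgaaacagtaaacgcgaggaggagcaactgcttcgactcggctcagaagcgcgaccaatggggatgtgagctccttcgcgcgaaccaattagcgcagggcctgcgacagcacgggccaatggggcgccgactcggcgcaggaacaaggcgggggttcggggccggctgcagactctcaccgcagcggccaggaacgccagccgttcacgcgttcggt
MTHFD2, chr2:74198365-74198664, + strand: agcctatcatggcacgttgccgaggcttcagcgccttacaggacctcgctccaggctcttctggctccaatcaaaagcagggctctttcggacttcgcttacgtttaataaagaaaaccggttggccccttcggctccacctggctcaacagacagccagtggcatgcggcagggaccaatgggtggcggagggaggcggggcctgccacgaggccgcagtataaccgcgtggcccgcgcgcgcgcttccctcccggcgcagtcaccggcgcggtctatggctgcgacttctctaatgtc

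In MTHFD1 the E-box spanned bases -15 to -10 from the start. In the MTHFD1L window shown it spanned -1 to 5, and the C/EBP-ATF element TGATGCAA spanned 25 to 32. The same pair of matches recurred in 2 further MTHFD1L windows that overlap the one shown, and the remaining MTHFD1L window held neither. Neither motif was present in the windows of PHGDH, PSAT1, MTHFD2, or SHMT1. A match in letters is not a binding site, and the absence of one says only that these letters are not in this window.

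The hairpin was checked through its target. ERG stood at 461, 449, and 433 CPM in the shERG-DMSO samples and at 166, 167, and 159 CPM in the shERG-Dox samples. Its log2 fold change was -1.44 ± 0.035 (SE; limma-voom, adjusted p = 3.3e-22), a 2.72-fold lower level. ERG transcripts were also lower in PBITE-1 than in DMSO, by 1.61-fold at 4 h, 3.08-fold at 8 h, and 2.98-fold at 12 h.

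The regulators named for these enzymes were measured next. MYC fell in both experiments, from 479, 476, and 480 CPM to 125, 119, and 129 CPM after Dox, and from 334, 356, and 329 CPM in DMSO to 38.9, 35.9, and 40.5 CPM at 4 h of PBITE-1. The fall was 3.85-fold after Dox and 8.83-fold at 4 h, 12.4-fold at 8 h, and 7.85-fold at 12 h of PBITE-1, and the treated samples lay below the controls in every comparison. ATF4 transcripts moved in opposite directions. They fell after Dox (log2 fold change -0.50 ± 0.037, limma adjusted p = 3.4e-12) and rose with PBITE-1 from 308, 310, and 289 CPM in DMSO to 669, 650, and 625 CPM at 4 h and to 935, 963, and 949 CPM at 12 h. MAX rose by 0.65, 0.88, and 0.78 on the log2 scale at 4, 8, and 12 h and did not pass the test after Dox (-0.10, limma adjusted p = 0.17). MYCN was at 0 to 10 counts in every sample and was not tested. ATF4 is regulated largely at translation, and its protein was not measured in these files.

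**Figure D1:**
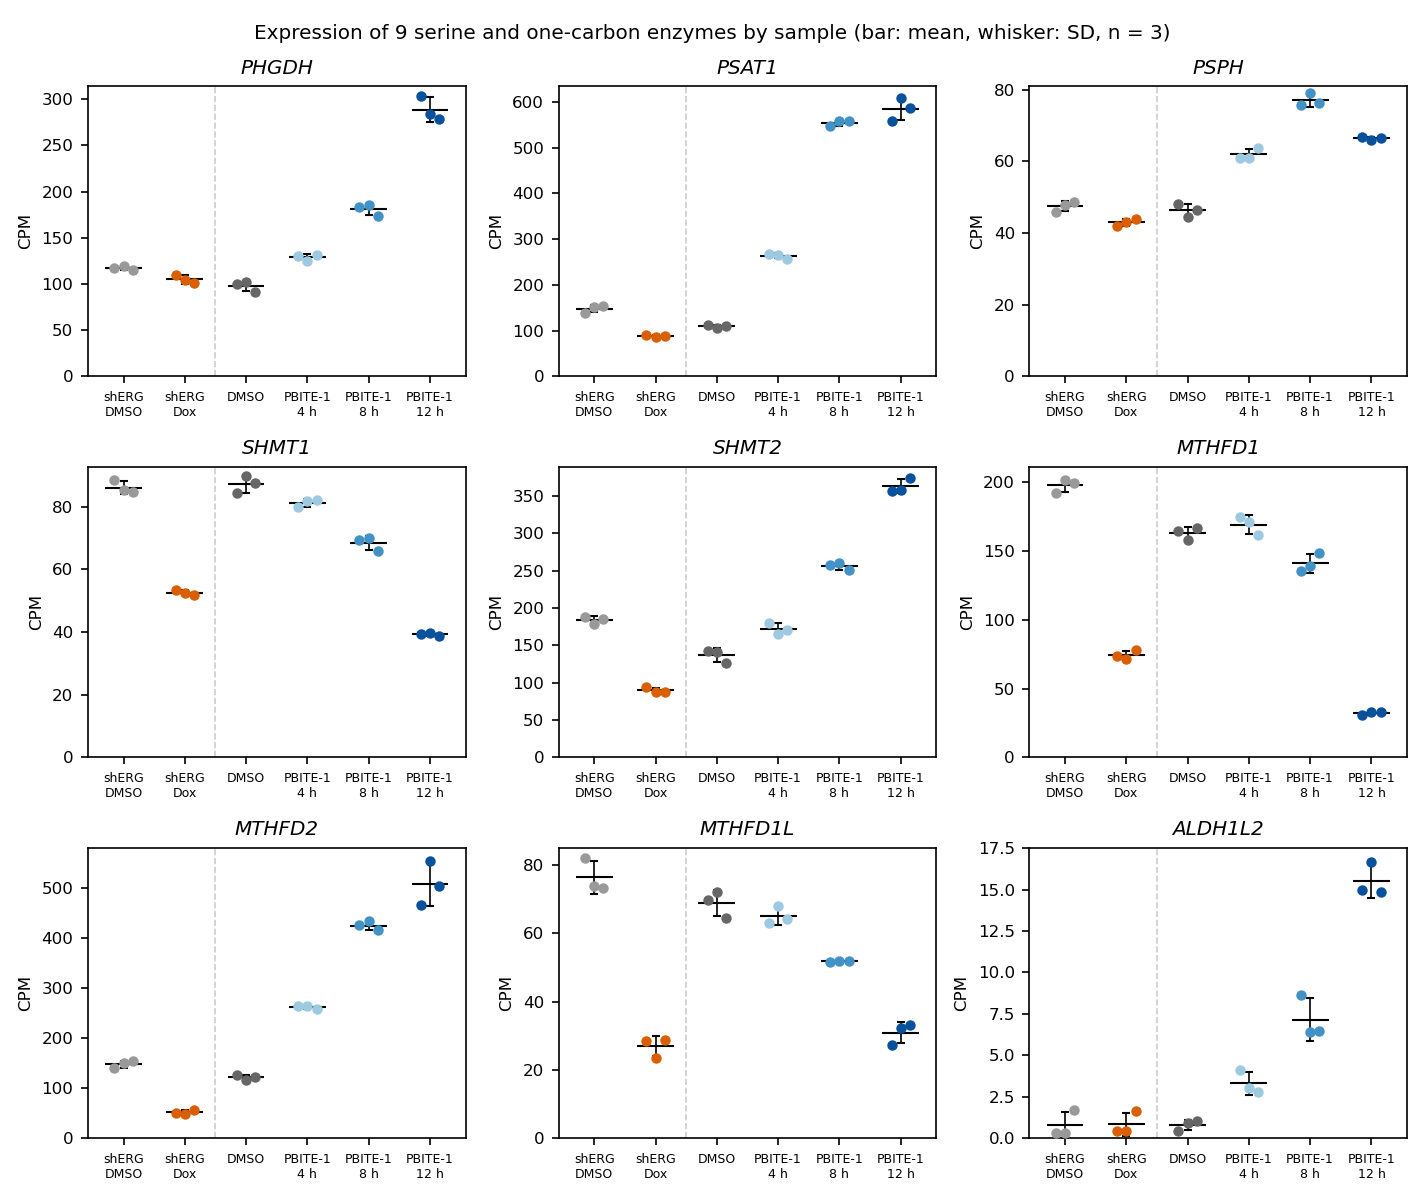
Expression of each enzyme in CPM (vertical axis, starting at 0, scaled by TMM within each experiment) in the 6 groups (horizontal axis). Points are samples, bars the mean of 3, and whiskers the SD. The dashed line separates the VCaP-shERG from the parental experiment, between which the scaling differs. MTHFD1 stood at 158 to 166 CPM in DMSO, 135 to 149 CPM at 8 h of PBITE-1, and 30.5 to 32.9 CPM at 12 h.

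PBITE-1 split the enzymes into a group that rose and a group that fell. PHGDH, PSAT1, PSPH, SHMT2, MTHFD2, and ALDH1L2 rose at 4, 8, and 12 h, with all treated samples above all DMSO samples, as they were for 28.6%, 36.7%, and 39.2% of all genes at the 3 times. SHMT1, MTHFD1, and MTHFD1L did not pass the test at 4 h and fell at 8 and 12 h. In this text a gene rose or fell where the adjusted p of limma-voom was under 0.05, and was called where its log2 fold change also exceeded 1 in size. At 4 h, 6 of 9 enzymes rose and 0 fell, where 26.4% of the 14164 genes tested rose and 24.7% fell. At 8 h, 6 rose and 3 fell against 35.9% and 37.0% of all genes, and at 12 h again 6 rose and 3 fell against 39.4% in each direction. All 3 serine synthesis enzymes and 3 of the 4 mitochondrial enzymes were in the rising group, and both cytosolic folate enzymes and the mitochondrial MTHFD1L in the falling group. At 12 h, 5 enzymes were called higher and 3 lower, against 17.1% and 15.4% of all genes. At 4 h 3 enzymes were called higher (PSAT1, MTHFD2, and ALDH1L2) and 0 lower, against 7.28% and 2.99% of all genes, and at 8 h the same 3 were called higher and 0 lower, against 14.9% and 8.86%.

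Among the serine synthesis enzymes, PSAT1, the aminotransferase of the second step, had the largest change. PSAT1 was at 112, 106, and 110 CPM in DMSO, at 268, 265, and 257 CPM at 4 h, at 548, 557, and 558 CPM at 8 h, and at 559, 608, and 587 CPM at 12 h. Its level was 2.40-fold that of DMSO at 4 h and 5.06-fold at 8 h (log2 fold change 2.34 ± 0.041, limma adjusted p = 7.1e-35) and 5.34-fold at 12 h. The 8 h and 12 h samples did not overlap but lay close together, at a log2 difference of 0.08 ± 0.034 (limma adjusted p = 0.047). That difference missed the threshold in 4 of 9 other analyses, with edgeR at an adjusted p of 0.085, and in 9 of 12 analyses that left out 1 sample, with adjusted p-values up to 0.26 without replicate 2 of the 12 h group.

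PHGDH, which catalyses the committed first step, rose later and more evenly. It was at 99.997, 102, and 91.1 CPM in DMSO, 130, 125, and 131 CPM at 4 h, 183, 185, and 174 CPM at 8 h, and 304, 284, and 279 CPM at 12 h. Each time stood above the time before it, with log2 steps of 0.49 from 4 to 8 h and 0.67 from 8 to 12 h (limma adjusted p = 4.4e-11 and 2.4e-16). At 12 h its level was 2.96-fold that of DMSO. PSPH, the phosphatase of the last step, peaked at 8 h. It was at 48.2, 44.4, and 46.3 CPM in DMSO and reached 75.6, 79.2, and 76.3 CPM at 8 h before it fell to 66.9, 66.0, and 66.5 CPM at 12 h (log2 difference -0.21, limma adjusted p = 0.00070). A PSPH pseudogene on chromosome 7, PSPHP1, was at 104 to 228 counts beside 552 to 1296 counts of PSPH and stood at 0.33, 0.45, and 0.71 on the log2 scale at 4, 8, and 12 h, where PSPH stood at 0.42, 0.74, and 0.52, so the split of reads between these copies leaves PSPH uncertain.

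The paired hydroxymethyltransferases went in opposite directions. SHMT2, the mitochondrial enzyme, rose from 143, 142, and 127 CPM in DMSO to 180, 165, and 170 CPM at 4 h, 258, 260, and 251 CPM at 8 h, and 356, 358, and 374 CPM at 12 h. SHMT1, the cytosolic enzyme, was at 84.2, 89.9, and 87.5 CPM in DMSO, at 79.8, 81.7, and 82.0 CPM at 4 h, at 69.2, 69.9, and 65.8 CPM at 8 h, and at 39.4, 39.7, and 38.7 CPM at 12 h. The change at 12 h was 2.66-fold higher for SHMT2 and 2.22-fold lower for SHMT1. At 4 h all SHMT1 samples lay below DMSO, but the log2 fold change of -0.10 ± 0.050 missed the threshold (limma adjusted p = 0.086). It passed with upper-quartile scaling, with library size only, and with all 18 samples in a single fit, at adjusted p-values of 0.010 to 0.031.

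The folate dehydrogenases also diverged. MTHFD2, the mitochondrial methylene-folate dehydrogenase and cyclohydrolase, was at 126, 116, and 123 CPM in DMSO, 265, 264, and 258 CPM at 4 h, 424, 433, and 415 CPM at 8 h, and 465, 553, and 503 CPM at 12 h. MTHFD1, the trifunctional cytosolic enzyme, was at 164, 158, and 166 CPM in DMSO, 175, 171, and 161 CPM at 4 h, 135, 139, and 149 CPM at 8 h, and 30.5, 32.7, and 32.9 CPM at 12 h. The MTHFD2 samples of all times lay above DMSO, 4.17-fold at 12 h. MTHFD1 overlapped with DMSO at 4 h, was slightly lower at 8 h (log2 fold change -0.21 ± 0.045, limma adjusted p = 6.6e-05), and was 5.08-fold lower at 12 h. Nearly all of that fall came between 8 and 12 h, a 4.38-fold drop (log2 difference -2.13 ± 0.064, limma adjusted p = 9.6e-27), and 0.932% of the genes tested had a more negative difference over this interval. Of all genes, 32.5% fell and 6.59% were called lower from 8 to 12 h.

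MTHFD1L, the mitochondrial formyl-folate synthetase that releases formate, fell in smaller steps. It was at 69.8, 72.0, and 64.6 CPM in DMSO, 62.9, 67.9, and 64.0 CPM at 4 h, 51.6, 51.8, and 51.9 CPM at 8 h, and 27.4, 32.4, and 33.0 CPM at 12 h. The 4 h samples overlapped with DMSO, and the level at 12 h was 2.22-fold lower. ALDH1L2, the mitochondrial formyl-folate dehydrogenase, had the largest fold change of the 9 on the smallest counts. It was at 7, 15, and 18 counts in DMSO, 50, 41, and 38 counts at 4 h, 148, 93, and 72 counts at 8 h, and 201, 255, and 221 counts at 12 h. The log2 fold change rose from 2.03 ± 0.35 at 4 h to 3.18 ± 0.33 at 8 h and 4.28 ± 0.32 at 12 h (limma adjusted p = 2.3e-15), a 19.4-fold higher level at 12 h. NOPCHAP1, on the opposite strand with 145 bases of shared exon, was at 59 to 281 counts over all samples, where ALDH1L2 was at 4 to 255. It fell by 1.58 on the log2 scale at 12 h, and whether its reads reach the ALDH1L2 counts was not tested.

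Steps between the times were tested directly. From 4 to 8 h, 6 enzymes rose and 3 fell, where 26.7% and 26.3% of all genes did, and PSAT1 and ALDH1L2 were called higher, against 4.43% of all genes (2.22% were called lower). From 8 to 12 h, 5 rose and 4 fell, PSPH having joined those that fell, where 27.8% and 32.5% of all genes did. Only ALDH1L2 among the 9 was called higher over this interval, against 3.48% of all genes. From 4 to 12 h, 5 rose and 3 fell, against 35.0% in each direction, and 4 were called higher and 3 lower, against 9.08% and 11.0%. PSPH alone did not pass (0.10 ± 0.056, limma adjusted p = 0.11).

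The same enzymes were then read in VCaP-shERG cells. After Dox 8 of 9 enzymes fell and 0 rose, where 35.3% of all genes fell and 35.1% rose, and the shERG-Dox samples lay below all shERG-DMSO samples for those 8, as they did for 36.4% of all genes. SHMT2, MTHFD1, MTHFD2, and MTHFD1L were called lower, against 7.19% of all genes, and 0 were called higher, against 12.0%. MTHFD2 went from 140, 150, and 153 CPM to 50.1, 49.3, and 56.2 CPM, a 2.85-fold lower level (log2 fold change -1.51 ± 0.056, limma adjusted p = 1.7e-18). MTHFD1L went from 82.0, 73.9, and 73.3 CPM to 28.5, 23.5, and 28.7 CPM, 2.84-fold lower, and MTHFD1 from 192, 201, and 199 CPM to 73.5, 71.5, and 77.9 CPM, 2.66-fold lower. These 3 enzymes of folate-bound units fell by similar amounts, although MTHFD2 rose and the other two fell with PBITE-1.

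The remaining enzymes fell less after Dox. SHMT2 was at 188, 178, and 185 CPM in shERG-DMSO and 94.0, 87.2, and 87.3 CPM in shERG-Dox, 2.05-fold lower, and SHMT1 at 88.4, 85.1, and 84.5 CPM and 53.3, 52.4, and 51.8 CPM, 1.64-fold lower. PSAT1 went from 139, 152, and 153 CPM to 90.5, 87.1, and 88.8 CPM, 1.67-fold lower. For PHGDH and PSPH the change was small, at log2 fold changes of -0.16 ± 0.045 (limma adjusted p = 0.0032) and -0.14 ± 0.061 (limma adjusted p = 0.038). The direction of both turned when counts were scaled by library size only (0.10 and 0.12) or by the upper quartile (0.0044 and 0.017), settings that put the median gene at 0.28 and 0.18. Relative to that median, PHGDH lay at -0.18 and PSPH at -0.16 under every scaling tried. A change of scaling moves all genes by nearly the same amount, so this agreement cannot decide the direction. PSPH also missed the threshold in 4 of 6 analyses without 1 sample (without replicate 2 or 3 of shERG-DMSO or replicate 1 or 2 of shERG-Dox), with adjusted p-values up to 0.11, with DESeq2 (adjusted p = 0.10), and with at least 10 counts in every sample (adjusted p = 0.17). The number of enzymes that fell after Dox was therefore 6 to 8 over the alternatives.

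ALDH1L2 was too low in VCaP-shERG cells for a direction to be read. It was at 4, 5, and 23 counts in shERG-DMSO and 6, 6, and 21 counts in shERG-Dox, with replicate 3 the highest in both groups. The log2 fold change was 0.22 ± 0.58 (limma adjusted p = 0.74), and it turned to -0.10, -0.20, and -0.35 without replicate 1 or 2 of shERG-DMSO or replicate 3 of shERG-Dox.

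The responses to PBITE-1 at 12 h and to Dox were then compared by the difference of their log2 fold changes in a fit of all 18 samples. Agent, line, and time differ together in this comparison. The difference was positive for 7 enzymes and negative for 2, where 33.3% of all genes passed as positive and 35.1% as negative. For 5 enzymes it was above 1 and for 0 below -1, against 13.0% and 15.9% of all genes. It was largest for ALDH1L2 (4.01 ± 0.66, resting on the low counts above), MTHFD2 (3.53 ± 0.083), PSAT1 (3.11 ± 0.064), and SHMT2 (2.40 ± 0.065), followed by PHGDH (1.68) and PSPH (0.63). It was negative for MTHFD1 (-0.97 ± 0.078, limma adjusted p = 4.4e-15) and SHMT1 (-0.48). MTHFD1L fell in both experiments, with a difference of 0.31 ± 0.10 (limma adjusted p = 0.0075) that missed the threshold with upper-quartile scaling (adjusted p = 0.099), with library size only (adjusted p = 0.65), and without replicate 2 of shERG-Dox (adjusted p = 0.059).

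**Figure D2:**
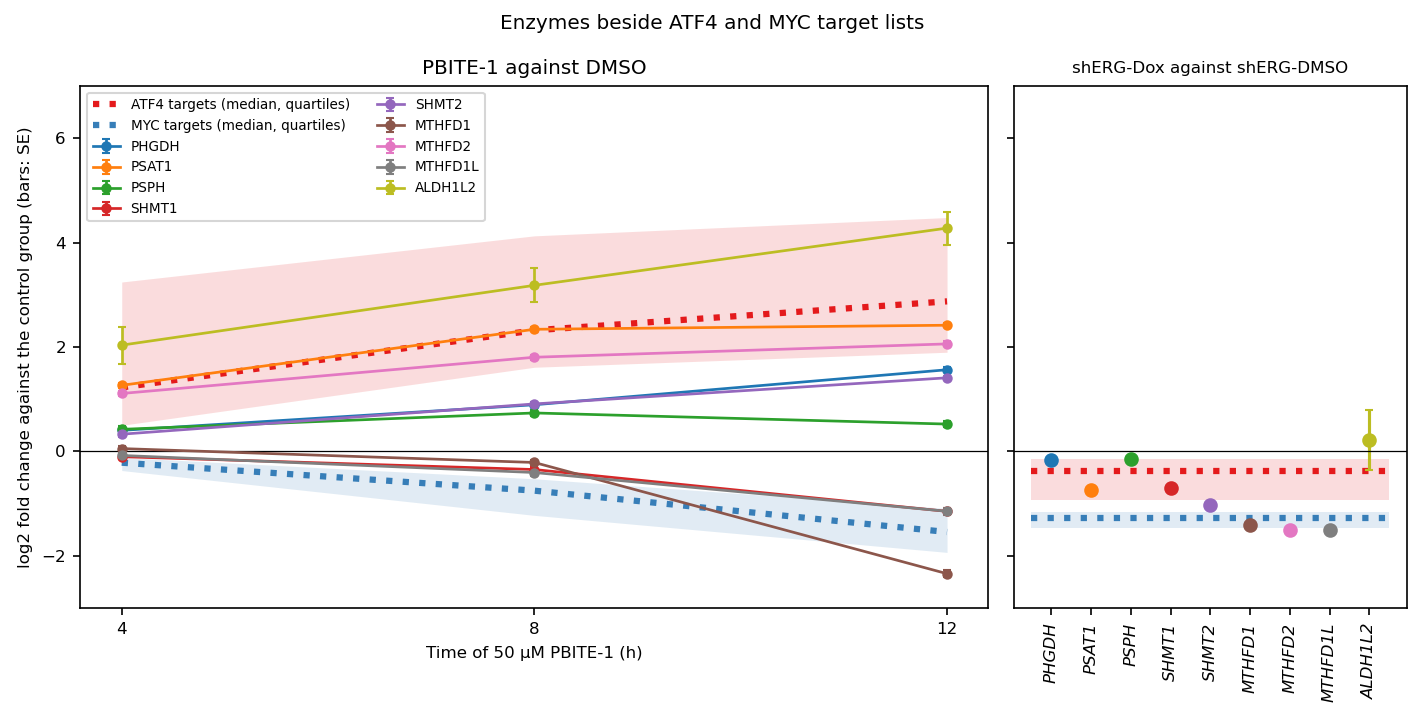
Log2 fold change of each enzyme (vertical axis) against DMSO by time of PBITE-1 in h (left) and against shERG-DMSO after Dox (right). Points are limma-voom estimates, bars their SE, dotted lines the medians of the ATF4 and MYC target lists, and bands their quartiles. PSAT1, MTHFD2, and ALDH1L2 run inside the ATF4 band at all 3 times, and MTHFD1 lies below the MYC band at 12 h.

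To place the enzymes, targets of ATF4 and of MYC that are not among the 9 were listed, with earlier results of these data known. Of 26 ATF4 targets, 20 rose and 2 fell at 4 h, and 23 rose and 2 fell at 8 h. At 12 h, 24 rose and 2 fell. Of all genes, 26.4%, 35.9%, and 39.4% rose and 24.7%, 37.0%, and 39.4% fell at these times. The median log2 fold changes of the list were 1.22, 2.32, and 2.87 beside -0.01, -0.02, and -0.01 over all genes. ATF3, a stress-induced transcription factor, went from 7 to 17 counts in the DMSO samples to 4035 to 6444 counts at 12 h, and CHAC1, which degrades glutathione, from 0 to 2 counts to 393 to 492 counts. The 2 that fell were VLDLR, a lipoprotein receptor, and ATF5, a transcription factor (-1.78 and -1.05 at 12 h). After Dox 4 of the 26 rose and 15 fell, where 35.1% and 35.3% of all genes did. The median of the list was -0.37 beside 0.02 over all genes. SESN2, a regulator of the amino acid response, and PPP1R15A, a phosphatase subunit of that response, rose after Dox (1.00 and 0.53). VLDLR fell after Dox as well (-1.07), and STC2, a secreted glycoprotein, fell (-1.78) although it rose with PBITE-1 (2.08 at 12 h).

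Of 45 MYC targets, most of them factors of ribosome production, 45 fell after Dox, where 35.3% of all genes did. Their median log2 fold change was -1.28. With PBITE-1, 27 fell and 3 rose at 4 h (median -0.22), and 41 fell and 2 rose at 8 h (median -0.75). At 12 h, 45 fell (median -1.55). Of all genes, 24.7%, 37.0%, and 39.4% fell and 26.4%, 35.9%, and 39.4% rose at these times. RRS1 and MYBBP1A, nucleolar proteins, were the lowest at 12 h (-3.10 and -2.95), and PUS1 and DKC1, which modify RNA to pseudouridine, were the lowest after Dox (-1.83 and -1.72). MYC transcripts were at their lowest at 8 h, while 36 of the 45 targets and the 3 falling enzymes fell further from 8 to 12 h, as did 32.5% of all genes.

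Against the spread of each list, the enzymes took different places. PSAT1, MTHFD2, and ALDH1L2 lay between the quartiles of the ATF4 list at 4, 8, and 12 h, and PHGDH, SHMT2, and PSPH lay below its lower quartile and above every one of the 45 MYC targets at each time. At 12 h SHMT1 and MTHFD1L lay between the quartiles of the MYC list, and MTHFD1 lay below its lower quartile of -1.94, with 6 of the 45 lower. At both 4 and 8 h these 3 enzymes lay above the upper quartile of the MYC list and below the lower quartile of the ATF4 list. After Dox MTHFD1 lay between the quartiles of the MYC list, MTHFD2 and MTHFD1L below its lower quartile with 8 of the 45 lower, and the other 6 above its upper quartile. The same log2 fold changes placed PHGDH, PSAT1, PSPH, and SHMT1 between the quartiles of the ATF4 list after Dox. These are descriptions, and no test of either list was run.

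**Figure D3:**
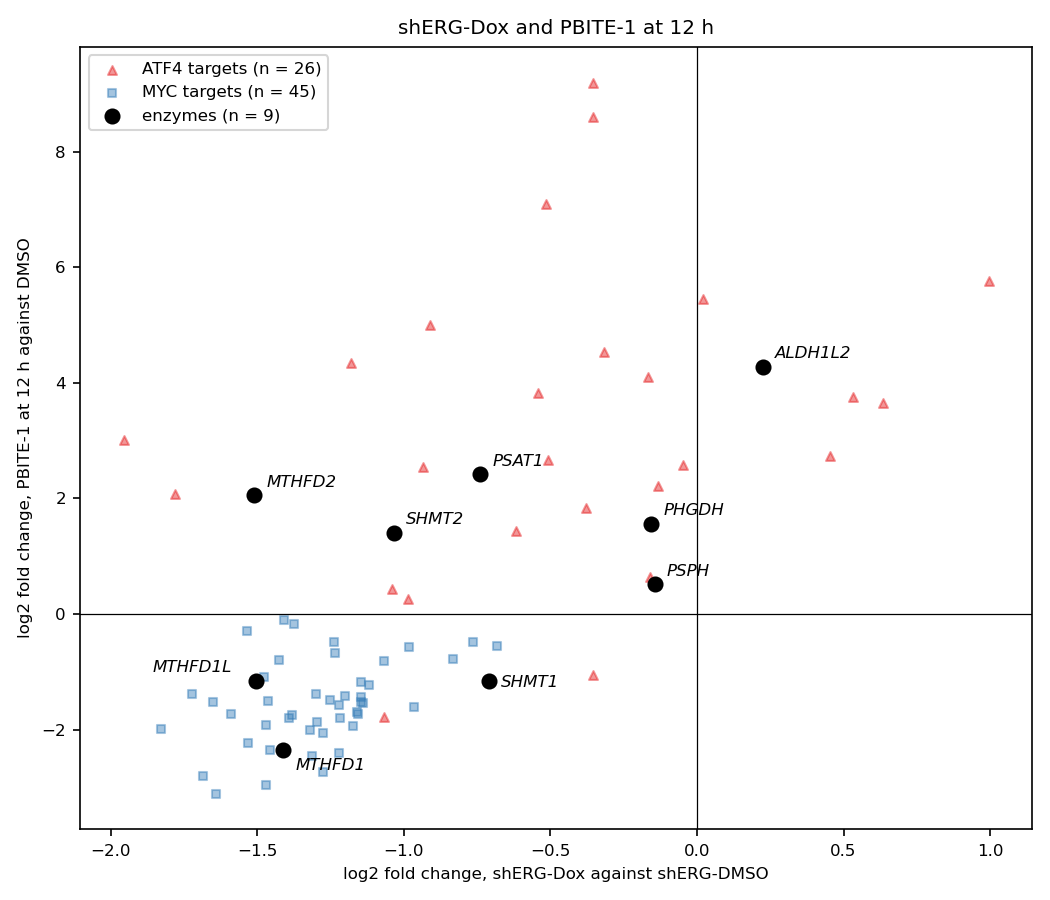
Log2 fold change after Dox in VCaP-shERG cells (horizontal axis) against that at 12 h of PBITE-1 in parental cells (vertical axis) for the 9 enzymes, 26 ATF4 targets, and 45 MYC targets. MTHFD1 and MTHFD1L sit at the lower left among the MYC targets with SHMT1 at their right edge, and MTHFD2, SHMT2, and PSAT1 sit at the upper left, lower after Dox and higher with PBITE-1.

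Ratios of counts within a library do not depend on scaling, and those of enzymes that went apart were chosen after their values were seen. SHMT2 to SHMT1 was 1.70, 1.58, and 1.45 in the DMSO samples, and its mean rose with PBITE-1, reaching 2.12 by 4 h, 3.75 by 8 h, and 9.25 ± 0.36 (SD, n = 3) at 12 h. MTHFD2 to MTHFD1 went from 0.747 ± 0.018 in DMSO to 1.55, 3.01, and 15.8 ± 0.95, 21.2-fold higher at 12 h. MTHFD2 to MTHFD1L went from 1.77 ± 0.15 to 4.04, 8.19, and 16.4 ± 1.0. PSAT1 to MTHFD1 went from 0.673 ± 0.0090 in DMSO to 18.3 ± 0.38 at 12 h, 27.2-fold higher. MTHFD2 to MTHFD1 was 0.727, 0.744, and 0.769 in shERG-DMSO and slightly lower, at 0.682, 0.689, and 0.721, in shERG-Dox, without overlap. MTHFD2 to MTHFD1L had a mean of 1.94 in both groups, with overlapping samples. SHMT2 to SHMT1 went from 2.14 ± 0.050 to 1.70 ± 0.052 and PSAT1 to MTHFD1 from 0.749 ± 0.024 to 1.20 ± 0.050 (1.60-fold higher), both without overlap.

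**Figure D4:**
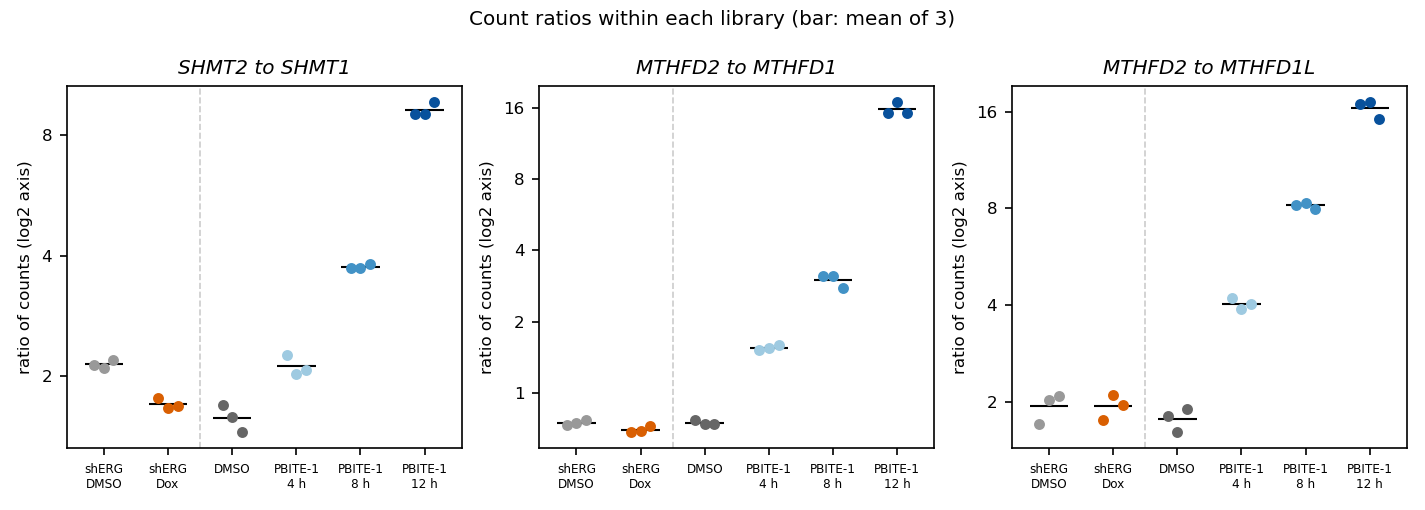
Ratio of counts of enzyme pairs within each library (vertical axis, log2 scale) in the 6 groups (horizontal axis). Points are samples and bars the mean of 3. MTHFD2 to MTHFD1 rises to 15.3 to 16.9 at 12 h of PBITE-1. In shERG-Dox it is 0.682 to 0.721, slightly below the 0.727 to 0.769 of shERG-DMSO.

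The levels of different enzymes were compared per kilobase of annotated exon. In DMSO, PSAT1 was highest at 50.1 ± 1.3 CPM per kilobase (SD, n = 3), followed by SHMT2 at 28.3 ± 1.8, MTHFD2 at 24.98 ± 1.1, MTHFD1 at 17.4 ± 0.47, and PSPH at 16.8 ± 0.70. MTHFD1L at 13.7 ± 0.76, SHMT1 at 12.0 ± 0.40, and PHGDH at 10.6 ± 0.63 came next, and ALDH1L2 was lowest at 0.0942 ± 0.035 CPM per kilobase. The samples of MTHFD1 and PSPH overlapped in this order. With the longest transcript in place of all exons, PSAT1 and SHMT2 were still the highest and ALDH1L2 the lowest, but PHGDH (30.7) and SHMT1 (31.6) moved above MTHFD2 and MTHFD1, so their place depends on the transcript used. By 12 h of PBITE-1 PSAT1 was at 267, MTHFD2 at 104, and SHMT2 at 75.01 CPM per kilobase of exon, and MTHFD1 was at 3.41.

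Before treatment, the enzymes other than ALDH1L2 differed little between the lines. In the fit of all 18 samples, shERG-DMSO was higher than DMSO for PSAT1 (0.27 ± 0.046), SHMT2 (0.26 ± 0.045), and MTHFD1 (0.12 ± 0.041), and lower for SHMT1 (-0.19 ± 0.047), so that 3 enzymes passed as higher and 1 as lower, where 23.3% of all genes passed in each direction. None of the 9 was called in either direction, against 1.19% of all genes called higher and 5.00% called lower. ALDH1L2 was at -0.52 ± 0.53 on its low counts, so its difference stayed unresolved. MTHFD1 missed the threshold without replicate 2 or 3 of shERG-DMSO or replicate 2 of DMSO, with limma adjusted p-values up to 0.096. Line and experiment cannot be told apart here.

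Other genes of the same metabolism were read for comparison. Of 19 further genes of folate metabolism and glycine cleavage, 17 were tested. After Dox 2 rose and 8 fell (median -0.31), where 35.1% of all genes rose and 35.3% fell. At 12 h of PBITE-1 3 rose and 10 fell (median -0.52), where 39.4% of all genes went in each direction. Among those with a mean of at least 50 counts, SLC19A1, the reduced folate carrier, fell in both (-3.16 and -1.002), from 57.4 to 68.3 CPM in DMSO to 6.18 to 8.19 CPM at 12 h. TYMS, the thymidylate synthase, fell in both as well (-1.34 at 12 h and -1.69 after Dox). TYMS was at -0.12 and -0.26 at 4 and 8 h, so most of its difference at 12 h arose after 8 h, as it did for MTHFD1. GGH, which trims the glutamate tail of folates, rose at 12 h (0.88) and was at -0.04 after Dox, and SFXN2 fell at 12 h (-1.43). GLDC, the glycine decarboxylase, rose at 12 h (1.18) and fell after Dox (-0.47). SFXN3, of a family of mitochondrial serine carriers, and DHFR2 rose after Dox (0.94 and 0.58).

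Of 11 genes of the methionine cycle and transsulfuration, 9 were tested, and 4 rose and 4 fell at 12 h while 2 rose and 6 fell after Dox (medians -0.03 and -0.78). Of all genes, 39.4% rose and 39.4% fell at 12 h, and 35.1% rose and 35.3% fell after Dox, so the counts at 12 h were near those over all genes. CTH, which makes cysteine, rose in both (2.45 and 0.92), MAT2B, a subunit of the S-adenosylmethionine synthetase, rose at 12 h (1.02), and MTAP, which salvages methionine, fell in both (-1.46 and -1.69). MTR, the methionine synthase, fell at 12 h (-1.27), and AHCY, the homocysteine-releasing hydrolase, fell after Dox (-1.002). All 11 genes of purine synthesis fell after Dox (median -1.02), led by PAICS (-1.77) and PPAT (-1.21), and at 12 h 9 fell and 1 rose (median -0.997). PFAS and ATIC were the lowest at 12 h (-2.34 and -1.88), and PRPS2 rose (0.24). At 4 h 3 purine genes had fallen and 2 had risen, where 24.7% and 26.4% of all genes had. Their median was -0.02, so most of that fall also came after 4 h.

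**Figure D5:**
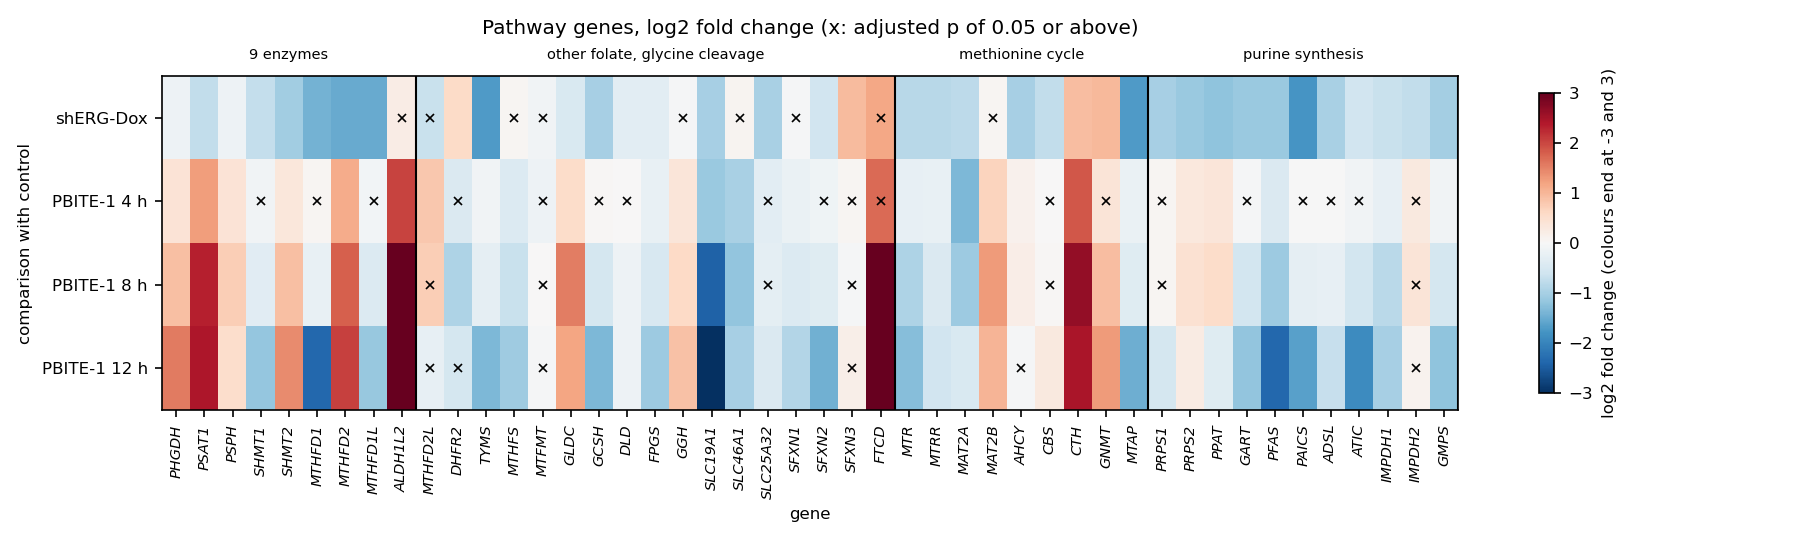
Log2 fold change (colour, ending at -3 and 3) of the 9 enzymes and of the tested genes of 3 related lists (columns) in 4 comparisons with the control group (rows). A cross marks an adjusted p of 0.05 or above. All purine genes are blue in the top row (after Dox), and 9 of 11 fell in the bottom row (12 h of PBITE-1).

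Genes with the most similar course to each enzyme were found by Pearson r of log2 CPM over the 18 samples, relative to the control mean of each experiment, among 11311 genes. Samples of a group share their treatment, so r is a description. PSAT1 was nearest to EIF1, ACACA, and UACA (r = 0.996 each), and MTHFD2 to GOT1, STC2, and KHDRBS3 (r = 0.995, 0.994, and 0.993). SHMT2 was nearest to FDPS, FLNA, and MARS1, PHGDH to HSPA13, STARD4, and UBP1, and PSPH to HSD17B7, SAV1, and GCH1. Among the falling enzymes, MTHFD1 was nearest to ECPAS, FKBP10, and UNC13A, SHMT1 to NUP210, NUP205, and SNRPA1, and MTHFD1L to ADSL, CTPS1, and TMEM123. ALDH1L2 was nearest to GGH, ZNF420, and HEATR5A, at r of 0.960 to 0.963. With deviations taken from the mean of all 18 samples, 11 of these 27 genes were found again.

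Reads of neighbours could reach some of the enzymes, since the use of strand in counting is not given in the sources used here. SLC4A5 shares 1324 bases of exon with MTHFD2 on the other strand and was at 49 to 203 counts where MTHFD2 was at 634 to 8466. ZBTB25 shares 178 bases with MTHFD1, SMCR8 196 bases with SHMT1, NDUFA4L2 33 bases with SHMT2, and NOPCHAP1 145 bases with ALDH1L2. The processed pseudogenes of PSAT1 and MTHFD2 in the table were at 0 to 1 counts.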

How the data were processed

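The deposited file holds raw counts per gene as whole numbers for 18 samples, made by the authors from paired 150-base reads of rRNA-depleted RNA and not normalized. The paper names Kallisto for quantification, and the submitters' processing notes name STAR and featureCounts on hg38. Which of these made the counts, the annotation, and the use of strand are not given in the sources used here. Depth was 11308600 to 17483423 counts per sample, and genes at few counts (ALDH1L2) carry the widest errors.

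Counts were analysed with edgeR 4.0.16 and limma-voom (limma 3.58.1, R 4.3.3), the tools that the study's methods name, with TMM scaling and Benjamini-Hochberg adjustment chosen here. edgeR's filterByExpr left 14164 of 22034 genes. The 6 VCaP-shERG and 12 parental samples each had their own fit, and differences between the experiments in a fit of all 18. CPM are scaled within each experiment, and log2 CPM used a prior count of 2. The procedure was tested on simulated data. Same-numbered samples did not deviate together (r from -0.023 to 0.037), so the numbers were not taken as pairs.

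The enzymes and gene lists were chosen with earlier results of these data known. Besides the enzymes, ERG, MYC, MYCN, MAX, and ATF4, the genes named are the 2 most positive and 2 most negative of each list at 12 h and after Dox (adjusted p under 0.05, mean count of at least 50) and the 3 genes most like each enzyme. NOPCHAP1, PSPHP1, and the overlapping neighbours were named for shared reads. The alternatives tried were DESeq2 1.42.0, the quasi-likelihood test of edgeR, RLE and upper-quartile scaling, library size only, no filter, at least 10 counts in every sample, a single fit, the replicate block, and leaving out each sample. Positions and exon lengths are from GENCODE release 29, and promoter sequences from RefSeq. Protein sequences were not analysed here. Some members of the gene lists are not reported here, and counts, medians, and sums are over the others.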

Additional observations from a re-analysis of the deposited data

Results flagged for a closer look

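Differences between times and between experiments were each tested directly with limma-voom, and those above 1 in size are listed first. The effect of PBITE-1 at 12 h exceeded that at 4 h by 1.16 on the log2 scale for PHGDH, 1.15 for PSAT1, 1.08 for SHMT2, and 2.24 for ALDH1L2. It was lower at 12 h than at 4 h by a difference of -1.05 for SHMT1, -2.40 for MTHFD1, and -1.07 for MTHFD1L. Adjusted p-values of these 7 differences were at most 2.4e-13. The level in DMSO cancels from them, so they compare the 12 h with the 4 h samples only. DMSO was not matched to each time, so a change with time in culture cannot be told apart from one with PBITE-1. For MTHFD2 the difference was 0.95, and for PSPH it was 0.10 and did not pass (limma adjusted p = 0.11). Of all genes, 9.08% were called higher and 11.0% lower from 4 to 12 h.

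The effect of PBITE-1 at 12 h minus that of Dox was 1.68 for PHGDH, 3.11 for PSAT1, 2.40 for SHMT2, 3.53 for MTHFD2, and 4.01 for ALDH1L2, with adjusted p-values of at most 8.7e-07. Differences of the other enzymes lay between -1 and 1. Of all genes, 13.0% passed with a difference above 1 and 15.9% with one below -1. The value of ALDH1L2 rests on 4 to 23 counts in the VCaP-shERG samples and ranged from 3.27 to 4.60 when 1 sample was left out.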

How the results depend on the processing

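Of 81 values (9 enzymes in 9 comparisons), 70 kept their direction and their side of the threshold under every alternative that tested the enzyme. ALDH1L2 has under 10 counts in some samples and was not tested with at least 10 counts in every sample.

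The direction turned for PHGDH after Dox with upper-quartile scaling (0.0044) and library size only (0.10), and for PSPH likewise (0.017 and 0.12). These scalings moved the median gene after Dox to 0.18 and 0.28, and that of the difference between experiments to -0.15 and -0.28. It turned for ALDH1L2 after Dox when 1 sample was left out (-0.35 to 0.97) and for MTHFD1L between shERG-DMSO and DMSO with DESeq2 (0.013), RLE scaling (0.012), and 1 sample left out (-0.063 to 0.020). Apart from the scalings, the cause was not tested.

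Counts of enzymes moved as follows. After Dox 8 fell in the main analysis, 7 with DESeq2 and with at least 10 counts in every sample, 6 with upper-quartile scaling and library size only, and 7 to 8 when 1 sample was left out. With library size only, 1 enzyme rose after Dox in place of 0 and 1 fell at 4 h in place of 0. With upper-quartile scaling and in the single fit of all samples, 1 fell at 4 h. With at least 10 counts in every sample, 3 rose from 8 to 12 h in place of 5, and 2 were lower in shERG-DMSO than in DMSO in place of 1. With DESeq2 and RLE scaling 5 were higher in shERG-DMSO in place of 3, and 2 to 4 were higher and 1 to 2 lower when 1 sample was left out (2 lower without replicate 2 of DMSO, 2 higher without replicate 2 or 3 of shERG-DMSO).

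Counts of all genes called fell most with at least 10 counts in every sample, which tests 11807 genes. After Dox 915 were called higher (1699 in the main analysis), at 4 h 554 higher and 213 lower (1031 and 424), and at 8 h 1354 and 788 (2105 and 1255). From 4 to 8 h they were 268 and 149 (628 and 315), from 8 to 12 h 276 and 530 (493 and 933), and from 4 to 12 h 809 higher (1286). Between shERG-DMSO and DMSO they were 56 and 330 (168 and 708), and 274 higher with no filter. With library size only, 506 were called lower after Dox (1019).

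With the replicate number as a block, the numbers of enzymes that rose and fell were the same in each comparison, 0 and 8 after Dox and 6 and 3 at 12 h, and calls over all genes were 1658 higher and 1011 lower after Dox and 2410 and 2166 at 12 h. The block changed no other call by over 1.5 times. Of the 27 genes most like the enzymes, 11 were shared when the centring changed. Depth limits ALDH1L2 in controls, at 4 to 23 counts.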
